A study of Mus musculus with 2 samples.

Results

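The semaphorin, plexin, ephrin, Eph, Slit, Robo and Unc5 genes are the guidance genes of the mouse genome that are known best from the wiring of nerves, and their EP300 peaks in newborn lung are described here. Members were the protein-coding genes on chromosomes 1 to 19 of the GENCODE annotation whose symbols begin with Sema, Epha, Ephb, Efna, Efnb, Slit or Robo and a number, or with Plxn or Unc5. This gave 61 of 20720 protein-coding genes, and 3 further genes with such symbols, Efnb1, Plxna3 and Plxnb3, lie on chromosome X and were left out. Unc50 and Unc5cl meet the rule by their first letters alone. EP300, a lysine acetyltransferase that DNA-bound transcription factors recruit to active enhancers and promoters, was mapped by ChIP-seq, the sequencing of DNA recovered with an antibody to the protein, in the lung of B6NCrl mice at postnatal day 0. There were 2 libraries, replicates 1 and 2, in 1 group with no treatment named. In the labels they share their donor and their biosample entry, so differences between the libraries may be technical. No condition was compared, and all values are descriptions without a test.

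Peaks came from the authors' optimal set, 43988 reproducible peaks on the mm10 build, and each was assigned to the nearest protein-coding transcription start site within 100 kb of its summit. Distances are given to the nearest start site of the gene, which can be an internal one. An assigned peak is a neighbour of a gene and not a measured regulator of it. Each library was also represented alone by its strongest 43988 peaks of 300000. The peak lists hold no read counts, so the depth of the libraries is unknown, and the intervals given cover the counting of genes or peaks only. Signal values were set by the authors and serve here to rank and describe peaks. Whole lung mixes many cell types, so fewer cells with EP300 at a site and less EP300 per cell cannot be told apart. Of marker genes listed for cell types, all 8 of lung epithelium, all 6 of lung mesenchyme and all 6 of endothelium had a peak, with medians of 11.5, 4 and 12.5 peaks. Neuronal markers had a peak at 3 of 9 genes with a median of 0, among them 2 at Rbfox3 and 1 each at Syt1 and Stmn2, while Snap25, Tubb3 and Elavl3 had none. Over all protein-coding genes 48.4% had a peak, and their median was 0 as well. The territories of the marker genes, as defined below, had medians of 64.0 kb for epithelium, 141 kb for mesenchyme, 142 kb for endothelium and 155 kb for neurons. Over all genes the median was 45.7 kb.

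Guidance molecules steer cells and cell processes by attraction and repulsion. Semaphorins are secreted or membrane-bound ligands that act through plexins, the class 3 members mostly with a neuropilin as co-receptor. Eph receptors are receptor tyrosine kinases that bind ephrins on neighbouring cells, the ephrin-A ligands held by a lipid anchor and the ephrin-B ligands by a transmembrane segment. Slits are secreted ligands of Robo receptors, and Unc5a to Unc5d encode receptors for netrins. Outside the nervous system the same molecules take part in the growth of blood vessels and the branching of epithelia, in the lung among other organs.

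The following 100 bases lie around the summit of the strongest peak of a leading member of each family, with Plxna2 added because it held the strongest peak of all members. They are mm10 sequence of the plus strand, written 5′ to 3′, with matches to the consensus sequences described later in capitals. Their positions are chr5:13353717-13353816 for Sema3a, in an intron, and chr1:194652218-194652317 for Plxna2, in an intron. The Plxna1 stretch at chr6:89414291-89414390 lies in an intron of the neighbouring gene Chchd6, and that of Epha4 at chr1:77538690-77538789 lies between genes. The remaining stretches are chr8:8623636-8623735 in an intron of Efnb2, chr11:35196939-35197038 in an intron of Slit3, chr16:72641642-72641741 in an intron of Robo1 and chr10:60888769-60888868 between genes upstream of Unc5b. The strongest of these sites, at Plxna2, holds a match to the glucocorticoid receptor consensus, and the sites of Sema3a and Epha4 hold none of the sequences searched.
Sema3a: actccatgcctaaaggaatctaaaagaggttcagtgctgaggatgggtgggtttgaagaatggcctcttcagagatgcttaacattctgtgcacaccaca
Plxna2: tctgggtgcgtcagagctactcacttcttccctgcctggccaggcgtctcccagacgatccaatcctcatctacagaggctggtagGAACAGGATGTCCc
Plxna1: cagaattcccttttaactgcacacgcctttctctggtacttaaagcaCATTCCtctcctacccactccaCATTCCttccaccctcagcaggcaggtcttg
Epha4: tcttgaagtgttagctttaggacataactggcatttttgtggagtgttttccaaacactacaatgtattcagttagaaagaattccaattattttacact
Efnb2: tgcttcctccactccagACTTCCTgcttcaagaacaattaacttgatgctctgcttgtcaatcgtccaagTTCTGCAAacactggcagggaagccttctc
Slit3: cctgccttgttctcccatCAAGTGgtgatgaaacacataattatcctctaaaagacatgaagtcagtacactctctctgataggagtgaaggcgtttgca
Robo1: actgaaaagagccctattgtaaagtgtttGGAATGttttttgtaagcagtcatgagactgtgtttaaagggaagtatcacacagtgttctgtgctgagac
Unc5b: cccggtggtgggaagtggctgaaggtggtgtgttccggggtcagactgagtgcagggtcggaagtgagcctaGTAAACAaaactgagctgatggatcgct

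EP300 peaks were found near most guidance genes of the newborn lung. At least 1 peak was assigned to 43 of the 61 members, or 70.5% (95% Wilson interval 58.1 to 80.4%), beside 48.4% of all protein-coding genes. Together the members held 220 peaks in the optimal set, 217 in replicate 1 and 216 in replicate 2. Their mean was 3.61 ± 3.81 peaks per gene (SD over 61 genes) and their median 3, against a mean of 1.71 ± 3.28 and a median of 0 over all genes. The median was 2 in each library alone. The peaks were unevenly spread: 22 members with 5 or more peaks, 36.1% of the members and beside 11.2% of all genes, held 175 of the 220, while 21 had 1 to 4 and 18 had none. Sema6a, Epha4, Ephb3 and Epha2 alone held 51 peaks, 23.2% of the total. Promoter peaks, with a summit within 1 kb of a start site, were found at 17 members, 27.9% (95% Wilson interval 18.2 to 40.2%), beside 19.4% of all genes. The share was 23.0% in replicate 1 beside 21.4%, 32.8% in replicate 2 beside 20.3%, and 16.4% beside 15.95% with a window of 500 bp, so the gap to all genes depended on the library and the window.

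**Figure D1:**
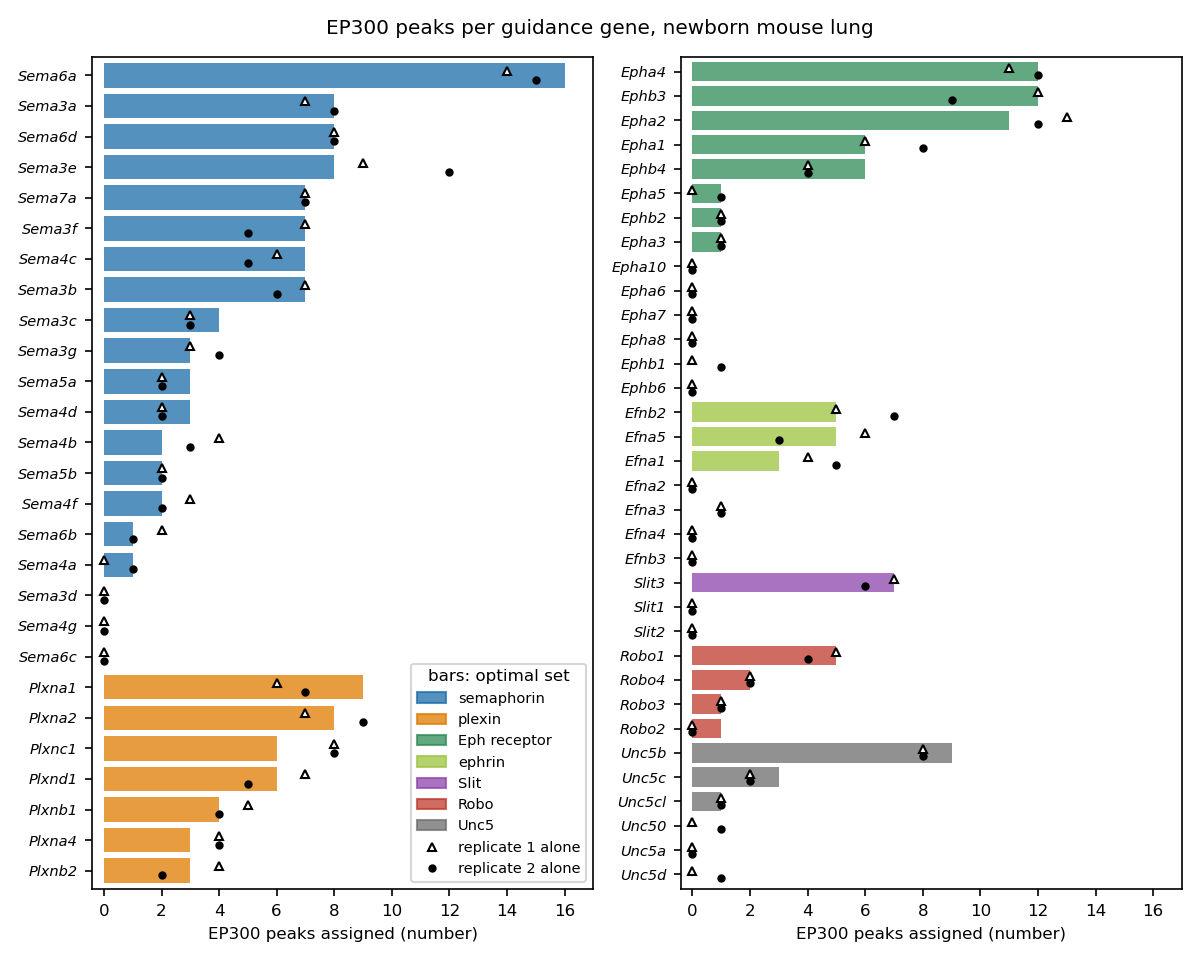
EP300 peaks assigned to each of the 61 members, grouped by family. Bars give the optimal set, triangles replicate 1 alone and dots replicate 2 alone; the longest bars are those of Sema6a with 16 peaks and of Epha4 and Ephb3 with 12 each, and 18 genes have no bar.

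Guidance genes are long, with a median of 46.3 kb against 17.6 kb over all genes, and under this assignment a gene far from others can receive more peaks. The territory of a gene, the bases within 100 kb that are nearer to its start sites than to those of any other protein-coding gene, had a median of 115 kb among members and 45.7 kb over all genes. Per megabase of territory, members held 30.5 peaks and all genes 24.7. In the quartile of genes with the largest territories, 25 of 33 members had a peak (75.8%) beside 69.6% of all genes, and their mean was 4.27 beside 3.64. The next quartile showed 8 of 10 members with a peak (80.0%) beside 55.6%, with medians of 6 and 1. The quartile below it had 9 of 15 members with a peak (60.0%) beside 40.1%, and the quartile of the smallest territories 1 of 3 beside 28.4%. The members' share was thus higher than that of all genes in each quartile, although the lowest quartile held only 3 members. In the quartiles of the largest and smallest territories it was nearer to that of all genes than in those between. The differences were not tested. A further 54 peaks lay inside the bodies of members but over 100 kb from any start site and were not assigned to any gene.

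**Figure D2:**
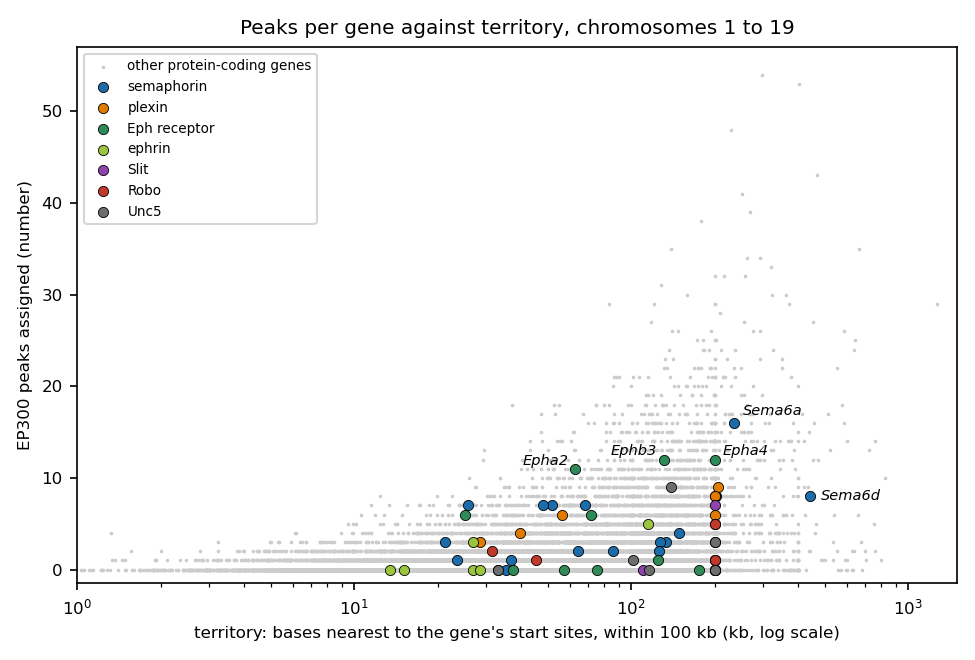
Peaks per gene in the optimal set against territory in kb on a log scale, for all protein-coding genes of chromosomes 1 to 19 (grey) and the 61 members (coloured by family). Sema6a, Epha4, Ephb3 and Epha2 stand highest among members, Epha2 with a territory of 62.7 kb and Sema6d with the widest at 443 kb; genes with territories under 1 kb lie outside the plot.

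The semaphorins, the ligands of plexins, held 89 peaks at 17 of 20 genes (85%, beside 48.4% of all genes), with a mean of 4.45 ± 4.01 per gene. Sema6a, a transmembrane semaphorin, led all members with 16 peaks in the optimal set, 14 in replicate 1 and 15 in replicate 2. Of all protein-coding genes, 225 with Sema6a included, or 1.09%, had 16 or more. Its strongest peak had a signal of 136 and lay 2.01 kb downstream of an internal start site and 37.5 kb from the outermost start, and 12 of its 16 peaks lay upstream of the nearest start, 6 of them between 64.0 and 82.4 kb away. Some of these peaks overlapped, those at 70.4 and 70.7 kb among them, and merging overlapping peaks left Sema6a with 13. When the start sites of long noncoding genes also competed for peaks, 8 remained with Sema6a, and the conservative set gave 10. The other transmembrane class 6 genes were uneven: Sema6d had 8 peaks in the optimal set and in each library, Sema6b had 1 and Sema6c none.

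Class 3 semaphorins, which are secreted, held 37 peaks at 6 of 7 genes. Sema3a, Sema3b, Sema3e and Sema3f had 7 or 8 each, Sema3c had 4 and Sema3g 3. Sema3d had none in the optimal set or in either library, although 2 peaks lay in its body beyond 100 kb of a start. Sema3a, the founding repulsive semaphorin, had 8 peaks in the optimal set, 7 in replicate 1 and 8 in replicate 2, all inside its own gene. Its strongest peak had a signal of 338 and rank 145 of the optimal set, and lay 43.0 kb upstream of an internal start site and 228 kb from the outermost start. With the outermost start site alone, no peak was assigned to Sema3a. Sema3e, the ligand of plexin D1, had 8 peaks in the optimal set, 9 in replicate 1 and 12 in replicate 2, a wider spread between the libraries than at Sema3a. Sema3b and Sema3f lie on chromosome 9 with 72.3 kb between them and had 7 peaks each. Assigning peaks first to the gene whose body holds them gave Sema3b 4 and Sema3f 8. Peaks of Sema3b lay at most 10.2 kb from its start, with signals up to 69.7, while Sema3f had a peak of signal 168 in an intron.

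Among the remaining semaphorins, Sema7a, the membrane-anchored ligand of plexin C1 and integrins, had 7 peaks in the optimal set and in each library. Its strongest, with a signal of 313 and rank 205, lay 30.2 kb downstream of its start, past the end of the gene. The class 4 genes held 15 peaks at 5 of 6 genes, of which Sema4c had 7, and Sema4g had none. The strongest peak of Sema4c lay in an intron of another gene, Fam178b. Assigning peaks first to the gene whose body holds them left Sema4c with 3. Sema5a had 3 and Sema5b 2. In Sema5a, 8 further peaks lay within the gene body beyond 100 kb of a start.

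Plexins, the semaphorin receptors, all had peaks: 39 at 7 of 7 genes, with a mean of 5.57 ± 2.37 and a median of 6. Of all genes, 48.4% had a peak. Plxna1 had 9 peaks in the optimal set, 6 in replicate 1 and 7 in replicate 2. Of these 9, 8 lay inside Chchd6, the next gene upstream, and assigning peaks first to the gene whose body holds them left Plxna1 with 1. Its 2 strongest had signals of 254 and 206. Plxna2 had 8 peaks in the optimal set, 7 in replicate 1 and 9 in replicate 2, all downstream of its start and inside the gene. The strongest of these, 32.4 kb downstream of the nearest start site and 34.1 kb from the outermost, had a signal of 496 and rank 13 of 43988, with rank 7 in replicate 1 and 23 in replicate 2. The next peak of Plxna2 had a signal of 69.3, so that a single site stood far above the others of this gene. Plxnc1, the receptor of Sema7a, had 6 peaks in the optimal set and 8 in each library, and its strongest had a signal of 296 and lay 46.3 kb upstream between genes. Plxnd1, the endothelial receptor of Sema3e, had 6, with 7 in replicate 1 and 5 in replicate 2. Plxnb1 had 4 peaks, and Plxna4 and Plxnb2 had 3 each. Plxna4 held 8 further peaks in its body beyond 100 kb.

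Eph receptors included genes rich in peaks and genes with few or none. Together 50 peaks lay at 8 of 14 genes (57.1%, beside 48.4% of all genes). Their mean was 3.57 ± 4.85 and their median 1, against 1.71 ± 3.28 and 0 over all genes. Counts over all genes were uneven as well, with a highest count of 54. Epha4, which binds ephrins of both classes, had 12 peaks in the optimal set, 11 in replicate 1 and 12 in replicate 2. Its strongest had a signal of 268 and rank 396, and lay 23.7 kb upstream of the start between genes, while 7 others lay in introns. Ephb3 also had 12, with 12 in replicate 1 and 9 in replicate 2, and 9 of the 12 lay between genes. Of these, 8 stood in 3 groups, at 44.9 to 46.0 kb, 78.6 to 78.8 kb and 84.1 to 85.0 kb downstream of the start. Each group held overlapping peaks, and those at 78.6 and 78.8 kb overlapped each other. Merging overlapping peaks left Ephb3 with 9. Epha2, an Eph receptor of epithelial cells, had 11, with 13 in replicate 1 and 12 in replicate 2. All of them lay at most 26.7 kb from its start, the strongest in the promoter with a signal of 137. Long noncoding start sites, where allowed to compete, left 7 of the peaks of Epha4, 4 of Ephb3 and 4 of Epha2.

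Epha1 and Ephb4, the latter a receptor of venous endothelium, had 6 peaks each in the optimal set. Epha1 had 6 in replicate 1 and 8 in replicate 2, and Ephb4 had 4 in each. In Ephb4, 3 of the 6 lay in the promoter, not all of them separate, and merging overlapping peaks left Ephb4 with 5. Epha3, Epha5 and Ephb2 had 1 peak each. No peak of the optimal set was assigned to Epha6, Epha7, Epha8, Epha10, Ephb1 or Ephb6, and Ephb1 had 1 in replicate 2. Among these genes, Epha6 spans 952 kb and Epha7 and Ephb1 154 and 433 kb, with territories from 176 to 200.1 kb, above the members' median. Those of Epha8, Ephb6 and Epha10 were below it, at 74.9, 57.2 and 37.4 kb.

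Ephrins, the ligands of Eph receptors, held 13 peaks at 3 of 7 genes (42.9%, beside 48.4% of all genes), with a mean of 1.86 ± 2.41, beside 1.71 over all genes. Efnb2, the ephrin of arterial endothelium, had 5 peaks in the optimal set, 5 in replicate 1 and 7 in replicate 2. Its strongest had a signal of 136 and lay in an intron 37.6 kb from the start. The median signal of its 5 peaks was 107, compared with 50.03 over all peaks of members. With long noncoding start sites competing, none of these peaks stayed with Efnb2. Efna5 also had 5, with 6 in replicate 1 and 3 in replicate 2. Of its 5, 3 lay in an intron between 97.4 and 98.2 kb from the start, close to the limit of assignment. Merging overlapping peaks left Efna5 with 4. Efna1 had 3 peaks in the optimal set, 4 in replicate 1 and 5 in replicate 2, including 1 in its promoter. It neighbours Efna3 and Efna4 on chromosome 3, which had no peak in the optimal set, although Efna3 had 1 in each library. Efna2 and Efnb3 had none in the optimal set or in either library.

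Slit and Robo genes had means of 2.33 and 2.25 peaks per gene, under the 5.57 of plexins and beside 1.71 over all genes. Per megabase of territory, Slit genes held 13.7 peaks, Robo genes 18.9 and Unc5 genes 16.4, below the 24.7 of all genes. The other families were above that value, plexins highest with 42.0. Slit3 had 7 peaks in the optimal set, 7 in replicate 1 and 6 in replicate 2, of which 5 lay upstream between 30.4 and 71.3 kb from the start and the strongest, with a signal of 88.3, in an intron. Slit1 and Slit2 had none in the optimal set or in either library, although 3 peaks lay in the body of Slit2 beyond 100 kb. All 4 Robo genes had a peak, beside 48.4% of all genes, and they held 9 in total. Robo1 had 5 peaks in the optimal set, 5 in replicate 1 and 4 in replicate 2, and 1 start site for each gene left 2 of them. Robo4, the endothelial member, had 2 peaks in each set, at most 1.06 kb from its start, and Robo3, its neighbour at 0.554 kb, had 1 promoter peak in each set. Robo2 had 1 peak, of signal 29.7, in the optimal set and none in either library, and 5 more lay in its gene body beyond 100 kb. Start sites of all its annotated coding transcripts gave Robo2 6 peaks. A promoter peak was present at 3 of 4 Robo genes, the highest share among the 7 families, beside 19.4% of all genes.

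The netrin receptors were led by Unc5b, the vascular member, with 9 peaks in the optimal set and 8 in each library. Its strongest peak had a signal of 151 and lay 57.2 kb upstream, and 4 others lay between 53.9 and 61.4 kb upstream. Merging overlapping peaks left Unc5b with 8. Unc5c had 3, with 2 in each library. Unc5a had none in the optimal set or in either library, and Unc5d had 1 in replicate 2. In the body of Unc5d, 1 optimal peak lay beyond 100 kb of a start. Unc5cl, which encodes a death-domain protein and not a netrin receptor, had 1 peak 90.0 kb away. Unc50, which encodes a Golgi membrane protein, had none in the optimal set, 1 in the conservative set and 1 in replicate 2. Without these 2 genes, 42 of 59 members had a peak, with a mean of 3.71 ± 3.83.

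Ligands and receptors had like numbers of peaks. The 30 ligand genes held 109 peaks at 21 genes (70%) and the 29 receptor genes 110 at 21 genes (72.4%), with a median of 3 in each. Of all genes, 48.4% had a peak. A promoter peak was present at 6 of 30 ligands (20%) and 11 of 29 receptors (37.9%) in the optimal set, beside 19.4% of all genes. The difference was not tested. The libraries alone gave 5 and 6 ligands and 9 and 13 receptors, in replicates 1 and 2, beside 21.4 and 20.3% of all genes.

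Most peaks of guidance genes, like most of all assigned peaks, lay over 10 kb from a start site. Distances were not compared at equal territory, whose median was 115 kb among members and 45.7 kb over all genes. The median distance to the start was 23.2 kb, against 16.6 kb for all assigned peaks, and 69.1% lay over 10 kb away, against 61.3%. Promoters held 21 of the 220 peaks, or 9.55% (95% Wilson interval 6.33 to 14.2%), against 15.01% of all assigned peaks. Introns held 45.5% in both, and intergenic sequence 42.7% against 35.7%. By family, the median distance was 40.7 kb for plexins, 15.5 kb for semaphorins, 19.1 kb for Eph receptors, 57.2 kb for ephrins, 64.9 kb for Slit3, 53.9 kb for Unc5 genes and 1.95 kb for Robo genes. Of the members' peaks, 99, or 45.0%, lay in the body of the gene they were assigned to, and 17 lay in the body of another gene alone. These shares were not computed over all genes. Some peaks stood in groups. With summits of 1 gene joined when no more than 2 kb apart, the 220 peaks formed 161 runs. Of these, 44 held more than 1 peak. Runs over all genes were not counted. Merging overlapping peaks left 194 of the 220, and 31674 of the 35407 assigned over all genes.

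The count at a gene also moved with the rule of assignment. With a limit of 50 kb, Plxna1, Slit3 and Efna5 had 1 peak each, Efnb2 had 2, Sema3e 3, Unc5b and Sema6d 4, Ephb3 7, Sema6a 8 and Plxna4 none. With long noncoding start sites competing, Sema6d had 3 peaks, Sema3e and Unc5b 4, Sema4c and Epha1 2, Plxnc1 1 and Plxna4 none, while Plxna1, Plxna2, Sema3a and Slit3 had as many as before. With no limit, the widest gains were at Sema6d, which had 23, at Robo2, which had 16, and at Efnb2, which had 19.

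**Figure D3:**
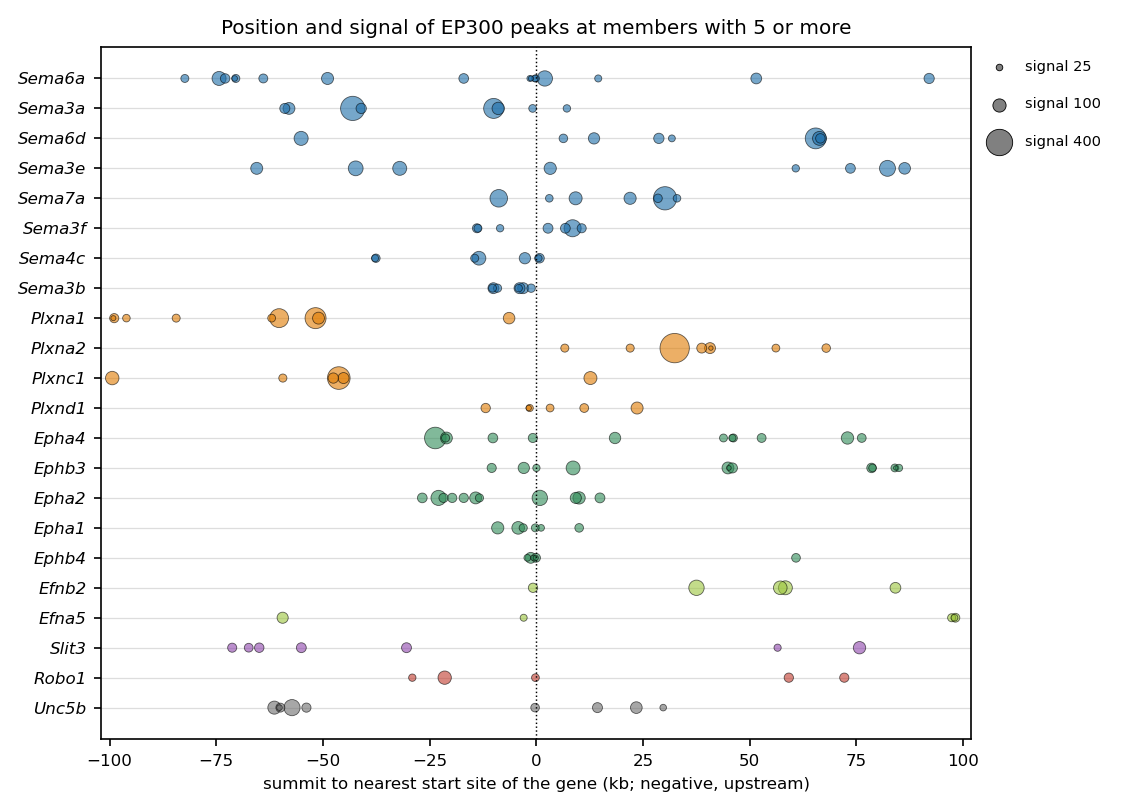
Position of each peak of the 22 members with 5 or more, as the distance of its summit from the nearest start site of the gene in kb, with the area of a dot proportional to the authors' signal value and colours by family. Peaks of Epha2 and Epha1 lie at most 26.7 kb from the start, those of Plxna1 and Plxnc1 mostly over 45 kb upstream, and those of Plxna2 all downstream.

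The strength of the peaks was ordinary for the lung as a whole. Their median signal was 50.03, with a range from 11.2 to 496, against a median of 48.5 for all assigned peaks. Of the 220, 20 were among the top 10% of the optimal set by signal and 5 among the top 1%. The 10 strongest had signals of 206 or more, the next 178, and belonged to 8 genes: Plxna2, Sema3a, Sema7a, Plxnc1, Epha4, Plxna1, Sema6d and Sema3g. Sema6d had its strongest, of signal 250, past the end of the gene by 51.4 kb. At Sema3g it had a signal of 216 and lay 15.3 kb downstream of the start. Each of the 10 was also a peak of both libraries, from whose lists the optimal set was made. At Plxna2 the signal was 274 in replicate 1 and 221 in replicate 2, at Sema3a 178 and 160, at Sema7a 168 and 144, and at Plxnc1 161 and 142. Epha4 showed 133 in replicate 1 and 141 in replicate 2, the sole case among the 10 with a higher value in replicate 2.

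Both libraries placed peaks at largely the same guidance genes. In 41 members both had at least 1 peak, and in 5 only 1 library did. The number of peaks was the same in both at 32 of the 61 members, differed by 1 at 20, by 2 at 6 and by 3 at 3. The 32 include members with no peak in either library. Of the 18 members without an optimal peak, 14 had none in either library, and nor did Robo2. The same count was not made over all genes. Of the 220 optimal peaks, 191 had a summit within 100 bp in the full list of each library, or 86.8%, against 85.9% of all optimal peaks. The optimal set was made from the lists of these libraries, so such matches were favoured by its making. After the median ratio between the libraries was set to 1, 170 of the 191 were within 2-fold of each other. At the same coordinates in the conservative set were 180, 81.8%, against 80.1%. The conservative set holds 210 peaks of members and is not a subset of the optimal set.

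**Figure D4:**
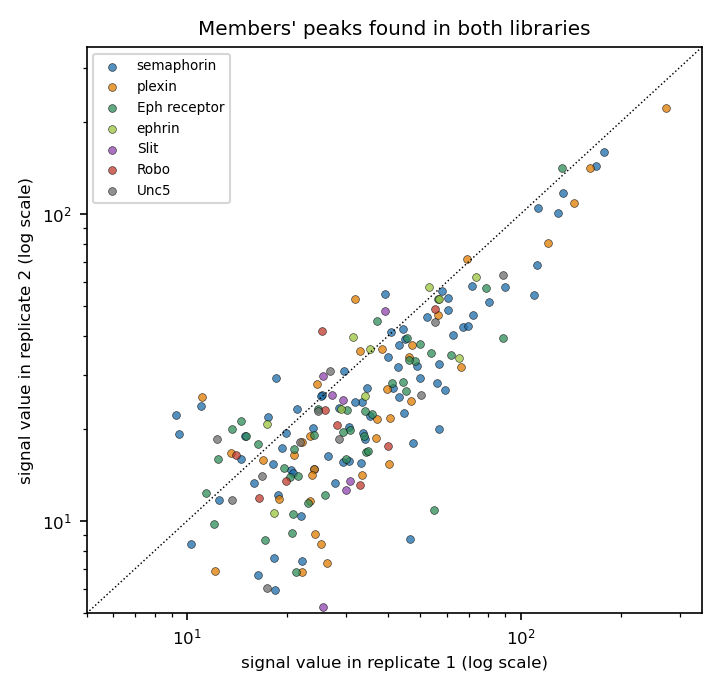
Signal values in replicate 1 and replicate 2, both on log scales, of the 191 peaks of members found within 100 bp in both libraries, coloured by family. Most points lie under the dotted line of equal values, and the highest point is the Plxna2 peak with 274 and 221.

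Consensus sequences at the centres of the peaks were counted in the central 100 bp of each, on both strands. The letters searched were GNACANNNTGTNC for the glucocorticoid receptor (GRE), TGANTCA for AP-1, TGTTTAC for forkhead factors (FOX), GGAATG for TEAD and AGGAAGT for ETS. The GATA factors were searched as AGATAA, the NKX2 factors as CAAGTG, CEBP as TTGCNNAA, STAT as TTCCNGGAA, SOX as ACAATGG and CREB as TGACGTCA. A match is a description of the letters and not of a bound factor. AP-1 and TEAD were each found in 23 of 220 peaks, 10.5% (95% Wilson interval 7.07 to 15.2%), against 7.67% and 11.6% of all 43296 optimal peaks on chromosomes 1 to 19. ETS was found in 20 (9.09% against 7.70%), and FOX in 13 (5.91% against 5.31%). GATA, NKX2 and CEBP were each found in 15, or 6.82%, against 8.30, 9.29 and 8.70%. SOX was found in 8 (3.64% against 2.13%) and STAT in 1, at Plxnb2 (0.455% against 1.54%). For all of these, the share over all peaks lay inside the interval of the members' share, so no difference was detectable with 220 peaks. The same held for all 11 sequences in the conservative set and in replicate 1. In replicate 2 the SOX share was 4.63% (2.53 to 8.31%) against 2.11% of all peaks. In the central 200 bp of the optimal set the ETS share was 17.3% (12.9 to 22.8%) against 12.6%. These 2 of the 55 shares computed had the value over all peaks outside their interval, which was not adjusted for that number. CREB was found in 0 of 220, which allows a share of up to 1.36% taken as 3 counts, or 1.72% by the upper Wilson bound, against 0.409% of all.

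A GRE match was present in 2 of 220 peaks, 0.909% (0.250 to 3.25%), against 2.17% of all. These were a peak of Sema6a and the strongest peak of Plxna2, whose match is the capital stretch at the end of the Plxna2 sequence printed near the beginning. AP-1 matches were spread over 16 genes and included 3 peaks of Epha2, and TEAD matches over 18, with 3 peaks of Sema3e. The Plxna1 sequence holds 2 TEAD matches, the Robo1 sequence 1, the Unc5b sequence a FOX match, the Slit3 sequence an NKX2 match and the Efnb2 sequence an ETS and a CEBP match. None of the sequences was found in 112 of the 220 peaks, a count that was not made over all peaks. Central windows had a mean GC content of 48.9%, against 47.0% for all optimal peaks.

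**Figure D5:**
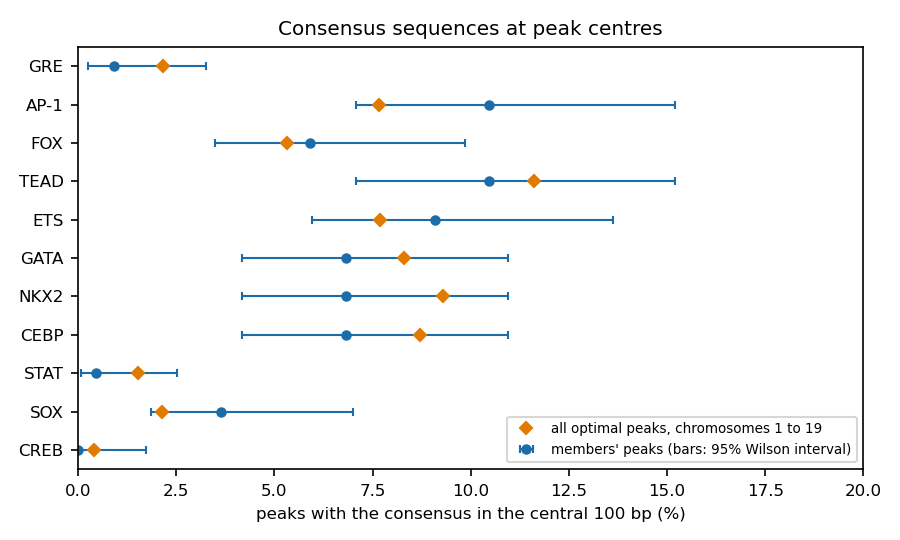
Percent of peaks with each consensus in the central 100 bp, for the 220 peaks of members (dots, with 95% Wilson intervals) and for all 43296 optimal peaks on chromosomes 1 to 19 (diamonds). Every diamond lies inside the bar of its row.

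The partners of these ligands and receptors had peaks as well. Of 40 other genes of the pathways, 33 had at least 1 peak (82.5%), with a median of 3.5 in the optimal set, beside 48.4% and a median of 0 over all genes. Their median territory was 124 kb, against 45.7 kb over all genes. Among 13 co-receptors and other ligands, 10 had a peak, led by Nrp1, the co-receptor of class 3 semaphorins, with 19 in the optimal set, 18 in replicate 1 and 14 in replicate 2. Nrp2 and the netrin Ntn4 had 8 each, while the netrin receptor Dcc had none in the optimal set or in either library. Of 27 intracellular effectors 23 had a peak. Mical2, an actin-oxidising enzyme, had 28, with 28 in replicate 1 and 25 in replicate 2, and Dpysl2, a collapsin response mediator, had 16 in each. Its relatives Dpysl4 and Crmp1 had none in any of the 3 sets.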

How the data were processed

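The data were peak lists of EP300 ChIP-seq from 2 libraries of newborn mouse lung. Per the labels, peaks were made on the mm10 assembly. Signal values were deposited by the authors with each peak, per the file contents, and no scaling is stated. The aligner and peak caller are not given in the sources used here. Members and lists were chosen with earlier results of these data known.

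Start sites were those of basic protein-coding transcripts in GENCODE release M21 (41438 sites). Peaks were assigned to the nearest start within 100 kb of the summit, which placed 35407 of the 43296 peaks on chromosomes 1 to 19. Genes were named by rule: in each family the 3 with most peaks, those with none and that with the strongest peak, besides the genes of the 10 strongest peaks; others named were chosen after their values were seen. Python 3.11.15, numpy 2.4.6, pandas 2.3.3, statsmodels 0.14.6 and matplotlib 3.10.9 were used, and placement and sequence search were tested on simulated data. Alternatives covered other sets, distances, start sites and windows. The pooled list was not used.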

Additional observations from a re-analysis of the deposited data

How the results depend on the processing

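The percent of members with a peak was 59.0 with the stronger 50% of the optimal set, 47.5 within 10 kb, 63.9 within 50 kb, 77.0 without a distance limit and 63.9 with long noncoding start sites competing, and in each case exceeded that of all genes. Peaks in total numbered 115, 68 and 364 with the stronger 50%, within 10 kb and without a limit. The mean per member was 3.44 in the conservative set, 1.89 with the stronger 50%, 1.11 within 10 kb, 2.46 within 50 kb, 5.97 without a limit, 3.31 with 1 start site per gene, 2.41 with long noncoding start sites, 4.26 with the gene body first and 3.18 with overlapping peaks merged. It was 3.77 with all protein-coding transcripts and 3.71 without Unc50 and Unc5cl, both chosen after seeing the data, and 3.65 without Unc5cl. Leaving out a library gave means from 3.54 to 3.56. The median was 2 in the conservative set, with 1 start site per gene, with merged peaks and in either library, 1 with the stronger 50%, within 50 kb and with long noncoding start sites, and 0 within 10 kb. Members with a promoter peak numbered 8 with the stronger 50% (13.1% against 10.2% of all genes) and 10 with a promoter window of 500 bp (16.4 against 15.95%). In the central 200 bp, matches rose among members and all peaks alike, to 4 for GRE (1.82% against 2.75% of all peaks), 38 for AP-1 (17.3 against 13.2%), 22 for FOX (10 against 8.40%), 39 for TEAD (17.7 against 19.4%), 38 for ETS (17.3 against 12.6%), 32 for GATA (14.5 against 14.4%), 27 for NKX2 (12.3 against 16.6%) and 30 for CEBP (13.6 against 14.7%). Leaving out a library gave 1 to 4 for GRE, 20 to 23 for NKX2, 2 for STAT and 0 to 1 for CREB. Fewer or more peaks enter by construction; the cause was not tested otherwise. No paired analysis was possible because there was 1 group and no test.

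The number of peaks at a gene depends on the rule of assignment, which is not a measured link. Libraries of unknown depth limit what a missing peak shows, and the median signal in a list is not a measure of occupancy per cell.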
